A study of Homo sapiens with 10 samples.

Results

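The mitochondrial genome transcripts described here are the 37 genes that the deposited count tables place on the chromosome MT, out of 58735 genes listed. They were chosen by that chromosome entry alone, and comprise 13 protein-coding genes, 2 ribosomal RNA (rRNA) genes and 22 transfer RNA (tRNA) genes, with 28 genes on the plus and 9 on the minus strand. They were measured by RNA sequencing of TPC-1 cells, an established line of human papillary thyroid carcinoma with a RET/PTC1 fusion. Cells transfected with a vector for PTCSC3-AS1, a long non-coding RNA (OE, n = 5), were compared with cells transfected with an empty vector (EV, n = 5). Replicates 1 to 3 of both groups came from 1 deposited table (first set) and replicates 4 and 5 from another (second set). According to the series' design, the libraries form 5 pairs, with no statement of how they were paired. The headers call the OE columns of the first set EST_OE. The labels do not say whether replicates were separate cultures, so p-values reflect only how these libraries varied, and that variation may be technical.

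The mitochondrial genome is a small circular DNA held in many copies per cell. Both of its strands are transcribed as long precursors that run through most of the circle, and the tRNAs that lie between the other genes are cut out of the precursor, which releases the rRNAs and mRNAs. The proteins it encodes are subunits of respiratory complexes I, III and IV and of the ATP synthase, complex V, and all other subunits come from nuclear genes. All mRNAs but MT-ND6 are read from the strand that the annotation calls plus, as are both rRNAs.

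The sequences below show the features on which the counts turn, as the transcripts of GENCODE 29 (hg38) give them, written 5′ to 3′. The first lines show the tRNA genes with the most counts, MT-TN (chrMT:5657-5729) for asparagine, MT-TC (chrMT:5761-5826) for cysteine, MT-TY (chrMT:5826-5891) for tyrosine, all on the minus strand, and MT-TL1 (chrMT:3230-3304, plus strand) for a leucine tRNA. Beside them stands MT-TA (chrMT:5587-5655, minus strand) for alanine, a neighbour of MT-TN with almost no counts. The capitals mark the anticodon.
MT-TN: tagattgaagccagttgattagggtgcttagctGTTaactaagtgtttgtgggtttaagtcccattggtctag
MT-TC: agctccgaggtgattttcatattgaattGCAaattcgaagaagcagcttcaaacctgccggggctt
MT-TY: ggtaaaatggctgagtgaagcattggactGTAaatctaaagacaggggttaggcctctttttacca
MT-TL1: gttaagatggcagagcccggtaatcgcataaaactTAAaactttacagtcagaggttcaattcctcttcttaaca
MT-TA: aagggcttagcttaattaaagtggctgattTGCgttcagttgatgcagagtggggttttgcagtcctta

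The next sequences, all on the plus strand, show where neighbouring members share bases or touch. The windows are chrMT:8507-8592 for the 46 bases that belong to both MT-ATP8 and MT-ATP6, chrMT:10740-10786 for the 7 bases shared by MT-ND4L and MT-ND4, and chrMT:1582-1690 for the end of MT-RNR1, all of the valine tRNA MT-TV, and the start of MT-RNR2. The capitals mark the shared bases in the first pair of lines and the tRNA in the last.
MT-ATP8 and MT-ATP6: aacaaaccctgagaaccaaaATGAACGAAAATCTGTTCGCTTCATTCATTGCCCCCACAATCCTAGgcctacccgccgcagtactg
MT-ND4L and MT-ND4: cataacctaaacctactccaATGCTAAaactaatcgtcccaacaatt
MT-RNR1, MT-TV and MT-RNR2: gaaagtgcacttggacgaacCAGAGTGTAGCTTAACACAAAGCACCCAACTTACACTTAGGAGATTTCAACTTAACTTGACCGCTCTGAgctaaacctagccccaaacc

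The libraries held 15761474 to 18066559 counts, so that 3 counts equal 0.166 to 0.190 CPM (a gene's counts scaled to the size of its library), an allowance for counting error only. The thyroid transcription factors PAX8 and FOXE1 and the keratins KRT8 and KRT18 were present in all libraries. NKX2-1, TSHR and SLC5A5 were at 0 in all libraries, and the summed leukocyte and endothelial markers reached at most 1.66 CPM in OE and 2.12 CPM in EV. The level of PTCSC3-AS1 itself was not analysed here, so its overexpression is taken from the labels. EV replicate 2 stood apart from the rest of the first set. For 60.4% of 14217 genes its level lay outside the range of the other 5 first-set libraries, against 17.4 to 43.0% for each of those 5. Among the mitochondrial mRNAs and rRNAs this was so for 13 of 15 genes in EV replicate 2, and results of the first set are therefore also given without it.

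Mitochondrial genes took 4.100 to 4.497% of all counts in OE libraries and 4.45 to 5.08% in EV libraries. Over the 10 libraries, the mRNAs held 85.3% of the mitochondrial counts, the rRNAs 14.2% and the tRNAs 0.586%. The plus strand held 98.6% and the minus strand 1.38%. Of the mRNA counts, subunits of complex IV, cytochrome c oxidase, held 52.7% and subunits of complex I, the NADH dehydrogenase, 32.8%. The ATP synthase (complex V) held 8.19%, and MT-CYB, the 1 mitochondrially encoded subunit of complex III, 6.35%. MT-CO1, the catalytic subunit of complex IV, had the highest count of all 58735 genes in each of the 10 libraries and 25.1% of the mitochondrial counts.

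Per length, the 3 complex IV mRNAs led. In CPM per kilobase of gene length, MT-CO1 averaged 7028 ± 983 in OE and 7831 ± 1159 in EV, MT-CO3 5993 ± 598 in OE and 6760.4 ± 1102 in EV, and MT-CO2 5559.5 ± 640.0 in OE and 6322 ± 1290.2 in EV (SD, n = 5 each). The standard deviations of these 3 neighbours in the order overlap. MT-ATP6, a membrane subunit of the ATP synthase, followed at 4450.3 ± 442 in OE and 4843 ± 358 in EV, and MT-RNR2, the 16S rRNA of the large mitochondrial ribosomal subunit, at 3363 ± 679.9 in OE and 3930.2 ± 563 in EV. The lowest mRNA of the plus strand apart from MT-ATP8 was MT-ND5 of complex I at 828 ± 57.4 in OE and 884 ± 136 in EV. MT-ND6, the complex I subunit on the minus strand, was at 746 ± 63.9 in OE and 798 ± 111 in EV, within the spread of MT-ND5. The 2 rRNAs, which are neighbours on the precursor, were far apart: MT-RNR1, the 12S rRNA of the small ribosomal subunit, had 680.3 ± 84.3 in OE and 976 ± 315 in EV.

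**Figure D1:**
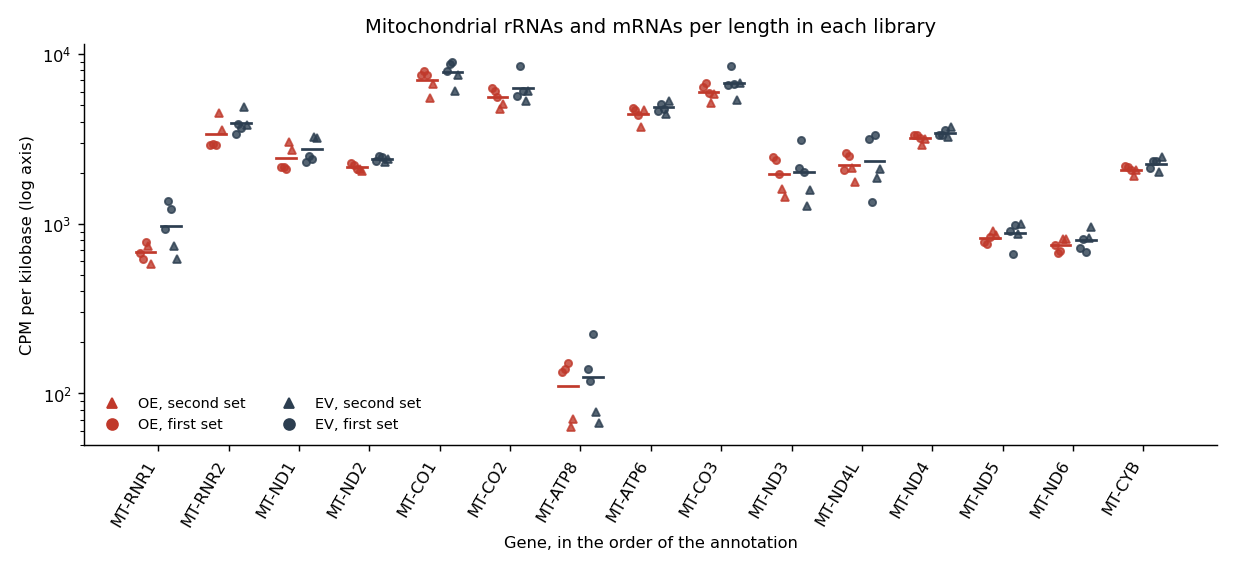
CPM per kilobase of gene length (log axis) of the 2 mitochondrial rRNAs and 13 mRNAs in every library, with OE in red left of EV in dark blue, circles for the first set, triangles for the second set and bars for group means. MT-CO1, MT-CO2 and MT-CO3 sit at the top, MT-ATP8 lies far below all others, and the OE circles of MT-RNR1 lie below its EV circles.

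Genes that share a transcript differed widely in counts. MT-ATP8, the small ATP synthase subunit that is read from the same mRNA as MT-ATP6, had 1.505 to 3.45% of the level of MT-ATP6 per length in OE and 1.26 to 4.74% in EV. MT-ND4L, which shares an mRNA with MT-ND4, had 55.7 to 78.2% of the level of MT-ND4 in OE and 40.4 to 93.7% in EV. How a read over bases shared by 2 genes was counted is not stated, nor is whether the counting used strand. The levels of MT-ATP8 and MT-ND4L, and of any gene against one on the opposite strand, are uncertain for that reason.

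The 22 tRNA genes spanned the whole range from no count to the levels of mRNAs. MT-TN and MT-TC together held 61.6 to 79.98% of tRNA counts in OE libraries and 63.6 to 76.98% in EV libraries. Per length, MT-TN averaged 1517 ± 321 CPM per kilobase in OE and 1546 ± 288 in EV, and MT-TC 1248 ± 107 in OE and 1233 ± 256 in EV (SD, n = 5 each). MT-TN thereby lay above the mRNAs MT-ND5 and MT-ND6. MT-TA, whose gene adjoins MT-TN on the same strand, had 1.65 ± 1.503 in OE and 2.51 ± 3.86 in EV. MT-TK, the lysine tRNA, had 0 counts in all 10 libraries, which allows up to 0.190 CPM. A count cannot tell a mature tRNA from a piece of its precursor. In all, 31 of the 37 genes passed the filter on low counts and were tested (13 mRNAs, 2 rRNAs and 16 tRNAs). The untested tRNAs were MT-TF, MT-TQ, MT-TW, MT-TA, MT-TS1 and MT-TK.

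Across both sets, most mitochondrial genes had slightly lower levels in OE than in EV libraries, but 0 passed the test. The edgeR quasi-likelihood test with Benjamini-Hochberg adjustment called 0 of the 31 mitochondrial genes at an adjusted p under 0.05, beside 0 of 14217 genes in all (0%). DESeq2 called 0 mitochondrial genes and 6 genes in all, and limma 0 of both. With no filter on low counts edgeR called 1 mitochondrial gene, MT-RNR1, at a log2 change of -0.47 (adjusted p = 2.87e-06), and 23 genes in all. The log2 change of OE over EV lay below 0 for all 13 mRNAs, both rRNAs and 12 of 16 tRNAs, beside 50.8% of all genes tested. It stayed below 0 for all 13 mRNAs and both rRNAs under each of the 3 other scalings of the libraries, but not for all when single libraries were left out. With an offset for GC content, chosen after seeing the data, the log2 change of MT-ND3 was above 0. Among the 24 mitochondrial genes over the cut of the filter in every library, an unadjusted p under 0.05 with a lower level in OE was found for 7, beside 2.53% of all genes. The 7 were MT-RNR1, MT-RNR2, MT-ND1, MT-ND2, MT-TR, MT-TL1 and MT-TV, and the higher direction held 0, beside 3.18%. Mitochondrial genes are cut from shared precursors, so their signs and low p-values are not separate observations. In bulk libraries, fewer mitochondrial genomes, fewer cells of a type and less RNA per cell cannot be told apart.

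The changes of the mRNAs lay within a narrow band. The median log2 change was -0.12 over the 13 mRNAs, from -0.19 to -0.019, beside a median of -0.0028 over all genes tested. By complex it was -0.17 for the 3 subunits of complex IV, -0.14 for the 2 of complex V, -0.12 for MT-CYB of complex III and -0.096 for the 7 of complex I. These medians lie close together beside the SE of single members, which was 0.077 for MT-CO1, 0.070 for MT-CYB and 0.18 for MT-ND4L, and the difference between complexes was not tested.

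MT-ND2, a membrane subunit of complex I, had 2362, 2302, 2192, 2183 and 2138 CPM in OE replicates 1 to 5, against 2428, 2612, 2580.0, 2412 and 2524 CPM in EV replicates 1 to 5. Each OE library lay below each EV library. The log2 change was -0.17 (SE 0.058), with an adjusted p = 0.847 (edgeR, n = 5 each). Such a separation of all OE from all EV libraries, OE being lower, was found for MT-ND2 and MT-TR, 2 of these 24 genes, beside 0.295% of all genes.

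MT-TR, the arginine tRNA, had 3.19, 4.61, 4.51, 3.26 and 4.48 CPM in OE replicates 1 to 5, against 5.79, 7.62, 6.54, 5.38 and 5.75 CPM in EV replicates 1 to 5. Again the groups did not overlap, at raw counts of only 55 to 118 per library. The log2 change was -0.63 (SE 0.16). Its edgeR p of 0.00167 was the lowest of the mitochondrial genes before adjustment, and its adjusted p = 0.847.

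MT-ND1, another complex I subunit, had 2060.4, 2066, 2013, 2903 and 2615 CPM in OE replicates 1 to 5, against 2217, 2404, 2309.9, 3119 and 3051 CPM in EV replicates 1 to 5. OE lay below EV inside each set (such a separation within each set, OE being lower in both, was found for MT-ND1, MT-ND2 and MT-TR, 3 of the 24 genes over the cut in every library, beside 1.01% of all genes). Across the sets the groups overlapped. The log2 change was -0.17 (SE 0.059), with an adjusted p = 0.847 (edgeR, n = 5 each).

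MT-CO1 had 11573, 12249, 11663, 8472 and 10229 CPM in OE replicates 1 to 5, against 12251, 13445, 13796, 9309 and 11577 CPM in EV replicates 1 to 5. Its groups overlapped, and its log2 change was -0.16 (SE 0.077). The other subunits of complex IV were close to it, MT-CO2 at -0.19 (SE 0.099) and MT-CO3 at -0.17 (SE 0.088). In complex V, MT-ATP6 was at -0.12 (SE 0.080) and MT-ATP8 at -0.16 (SE 0.15), and MT-CYB of complex III was at -0.12 (SE 0.070). The remaining complex I subunits were MT-ND4 at -0.11 (SE 0.065), MT-ND5 at -0.096 (SE 0.094), MT-ND6 of the minus strand at -0.095 (SE 0.072), MT-ND4L at -0.084 (SE 0.18) and MT-ND3 at -0.019 (SE 0.12). The log2 change stayed below 0 under 14 of 18 alternative fits for MT-ND3, 16 of 18 for MT-ND4L and 17 of 18 for MT-ATP8. For each of these genes, leaving out a single library could turn the sign.

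Among the tRNAs the strands had different medians, -0.23 for the 11 tested tRNAs of the plus strand and 0.031 for the 5 of the minus strand. The difference between the strands was not tested. Of the plus strand, 10 of 11 lay below 0. MT-TL1, the leucine tRNA that follows MT-RNR2, was at -0.38 (SE 0.13), and MT-TV, the valine tRNA between the rRNAs, at -0.62 (SE 0.29). MT-TM, the methionine tRNA, was at -1.16 (SE 0.38), but had only 2 to 22 counts per library and passed the filter with 2 OE and 4 EV libraries over its cut, so its unadjusted p, also under 0.05, is not counted above. Of the minus strand, 2 of 5 lay below 0, and the 2 abundant members were at -0.0097 (SE 0.13) for MT-TN and 0.031 (SE 0.099) for MT-TC.

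**Figure D2:**
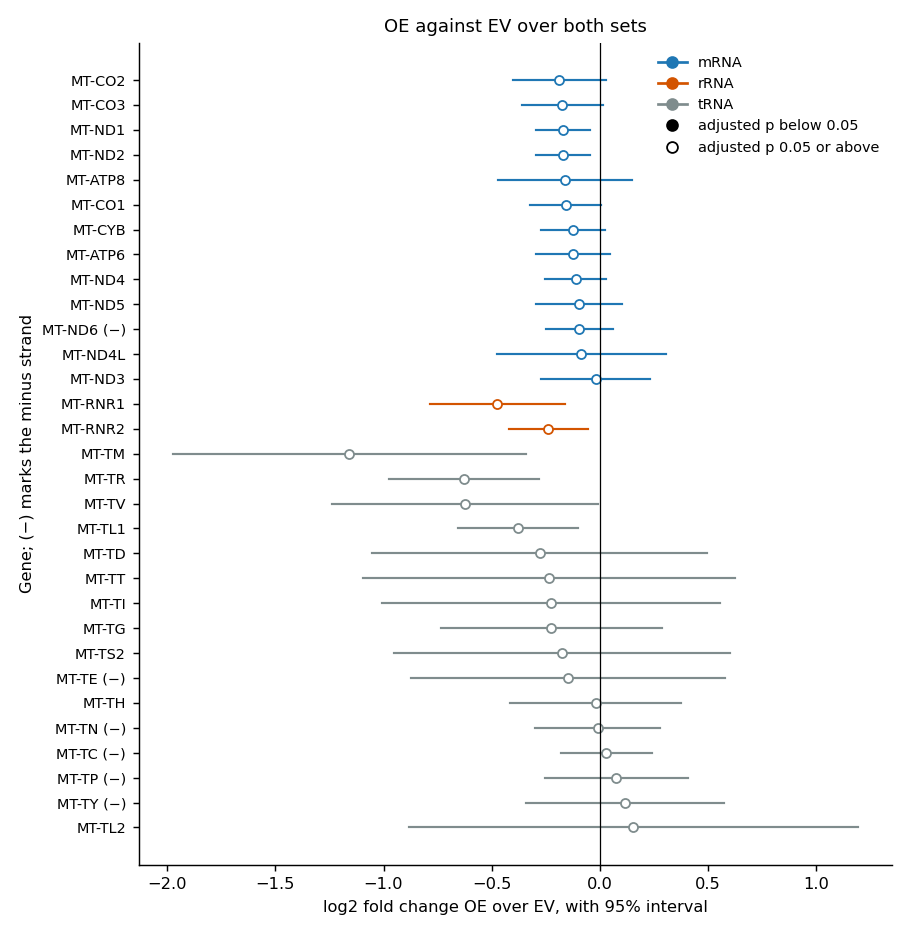
Log2 fold change of OE over EV across both sets with its 95% interval for the 31 tested mitochondrial genes, grouped as mRNAs (blue), rRNAs (orange) and tRNAs (grey), with (−) for genes of the minus strand. All points are open because 0 genes reached an adjusted p under 0.05, and 27 of 31 lie left of 0.

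Among mRNAs and rRNAs, the largest log2 change between OE and EV was that of MT-RNR1 in the first set. MT-RNR1 had 641, 590.4 and 749 CPM in OE replicates 1 to 3, against 893, 1297 and 1172 CPM in EV replicates 1 to 3. In the second set it had 709 and 555 CPM in OE replicates 4 and 5, against 707 and 587 CPM in EV replicates 4 and 5. All OE libraries of the first set lay below all EV libraries, and in the second set the groups overlapped at the level of the OE libraries of the first set. The log2 change was -0.032 (SE 0.14) in the second set and -0.77 (SE 0.14) in the first set. The adjusted p was 0.9998 in the second set (n = 2 each) and 0.215 in the first set (n = 3 each) by edgeR's quasi-likelihood test. The difference of these changes, second minus first set, was 0.73 (SE 0.23), with an unadjusted p = 0.008403 and an adjusted p = 0.9998 by edgeR.

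MT-RNR2 had 4556, 4609 and 4523 CPM in OE replicates 1 to 3, against 5285, 6060.5 and 5727 CPM in EV replicates 1 to 3. In the second set it had 6977 and 5551 CPM in OE replicates 4 and 5, against 7604 and 5959.7 CPM in EV replicates 4 and 5. The groups were apart in the first set and overlapped in the second. The log2 change was -0.11 (SE 0.14) in the second set and -0.33 (SE 0.080) in the first, where the adjusted p was 0.365 (edgeR, n = 3 each). The second-set changes of both rRNAs turned in sign when OE replicate 5 or EV replicate 4 was left out.

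Whole classes followed the same lines. The rRNAs took 0.512, 0.518 and 0.527% of all counts in OE replicates 1 to 3, against 0.622, 0.712 and 0.701% in EV replicates 1 to 3. In the second set they took 0.772 and 0.612% in OE replicates 4 and 5, against 0.839 and 0.651% in EV replicates 4 and 5. The 13 mRNAs took 3.84, 3.95 and 3.73% in OE replicates 1 to 3, against 4.01, 4.34 and 4.35% in EV replicates 1 to 3, and 3.297 and 3.602% in OE replicates 4 and 5, against 3.58 and 4.13% in EV replicates 4 and 5. In the first set both classes were lower in every OE library than in any EV library, and in the second set both overlapped.

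**Figure D3:**
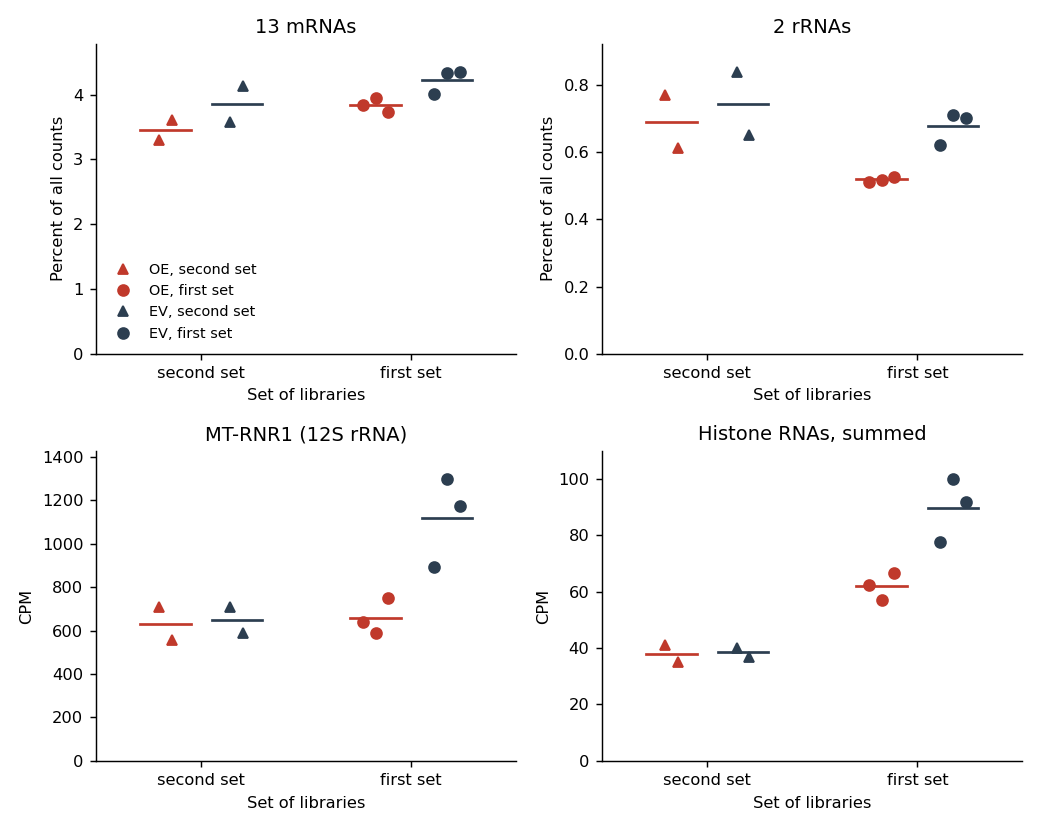
Share of all counts taken by the 13 mitochondrial mRNAs and by the 2 rRNAs (percent), the level of MT-RNR1 (CPM) and the summed level of 13 histone RNAs (CPM) in every library, with OE in red left of EV in dark blue and bars for means. The EV circles of the first set stand above all OE circles in the 4 panels, and the triangles of the second set show no such gap for MT-RNR1 or the histone RNAs.

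Other values moved with MT-RNR1. Histone RNAs, most of which carry no poly(A) tail, summed to 62.3, 57.2 and 66.8 CPM in OE replicates 1 to 3, against 77.5, 99.8 and 91.99 CPM in EV replicates 1 to 3. In the second set they summed to 40.95 and 35.1 CPM in OE replicates 4 and 5, against 40.03 and 36.97 CPM in EV replicates 4 and 5. A list of 18 RNAs taken to lack such a tail matched 19 genes, 13 of them these histone RNAs, so it largely repeats the sum above. The median log2 change of those tested was -0.72 in the first set. There 7 of 11 were lower in OE at an unadjusted p under 0.05, beside 4.47% of all genes. Among second-set libraries it was 0 of 9, beside 0.506%, with a median of -0.21. Over both sets it was 5 of 11, beside 2.53%, and all 11 lay below 0 (median -0.50), beside 50.8%. The labels do not state how RNA was selected for the libraries, and the part of RNA selection or quality in the rRNA result was not tested. The GC content of genes also moved with the groups. As a description across genes, with no test, a library's deviation from its set mean followed GC content at r = 0.34, 0.052 and 0.19 in OE replicates 1 to 3 and at -0.16, -0.081 and -0.24 in EV replicates 1 to 3. The second set gave an r of 0.027 and 0.067 in OE replicates 4 and 5, against -0.099 and 0.0028 in EV replicates 4 and 5, so that each OE library lay above each EV library in both sets. With an offset for GC content, chosen after seeing the data, the first-set change was -0.72 for MT-RNR1 and -0.25 for MT-RNR2, and that of MT-ND2 became -0.083 in place of -0.16.

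Within the first set edgeR called 0 of 28 tested mitochondrial genes, beside 0.0349% of all genes. In the second set it called 0 of 32, beside 0%, and for the difference between the sets 0 of 31, beside 0.00703%. By unadjusted p under 0.05, 1 mitochondrial gene (MT-ND2) was lower in the second set, beside 0.506% of all genes, and 6 were lower in the first set, beside 4.47%. By the same rule 0 were higher in either set, beside 0.589% of all genes in the second and 4.37% in the first. DESeq2 called 1 mitochondrial gene in the first set (MT-RNR1, adjusted p = 0.000981) and 0 in the second or for the difference. OE lay below EV without overlap for 12 of 32 mitochondrial genes in the second set (among them MT-TM, MT-TD and MT-TL2, which have few counts), beside 12.7% of all genes, and for 8 of 28 in the first, beside 7.86%. MT-ND1 and MT-ND2 had nearly the same change in both sets, MT-ND1 -0.16 (SE 0.077) in the second and -0.18 (SE 0.076) in the first, and MT-ND2 -0.19 (SE 0.068) in the second and -0.16 (SE 0.079) in the first. MT-TR was at -0.52 (SE 0.27) in the second set and -0.70 (SE 0.21) in the first. MT-TL1 was at -0.21 (SE 0.13) in the second set and -0.51 (SE 0.19) in the first.

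The first-set calls depended on EV replicate 2. Without it, 1578 genes were called in the first set, in place of 5 of 14340, so the rise was not particular to mitochondrial genes. Among them were 6 mitochondrial genes, all lower in OE, in place of 0 of 28. MT-RNR1 was then at -0.65 (adjusted p = 1.47e-05) and MT-RNR2 at -0.28 (adjusted p = 0.00161), both by edgeR with 2 EV libraries. The other 4 were MT-TL1 at -0.60, MT-TN at -0.21, MT-ND4L at -0.44 and MT-ND5 at -0.26. EV replicate 2 differed from the other EV libraries of its set in both directions. MT-ND4L had 398 CPM in EV replicate 2, against 934 and 989 CPM in EV replicates 1 and 3, and MT-TY 3.94 CPM, against 11.8 and 11.6 CPM. MT-CO2 was higher there, at 5852 CPM in EV replicate 2, against 3887 and 4157 CPM in EV replicates 1 and 3. MT-ND4L per length was 40.4% of MT-ND4 in EV replicate 2 and 93.7% and 93.1% in EV replicates 1 and 3.

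Ratios between classes are not affected by the scaling of the libraries. The log2 ratio of rRNA to mRNA counts averaged -2.33 ± 0.327 in OE and -2.38 ± 0.405 in EV in the second set (SD, n = 2 each), and -2.89 ± 0.0561 in OE and -2.64 ± 0.0425 in EV in the first set (SD, n = 3 each). It was thus lower in OE by more than the spread in the first set, and higher in OE by less than the spread in the second. The log2 ratio of the 12S to the 16S rRNA was -2.83, -2.96 and -2.59 in OE replicates 1 to 3, against -2.57, -2.22 and -2.29 in EV replicates 1 to 3. In the second set it was -3.298 and -3.32 in OE replicates 4 and 5, against -3.43 and -3.34 in EV replicates 4 and 5. Each OE library of the first set lay below each EV library, OE replicate 3 and EV replicate 1 being nearest, and in the second set each OE library lay above each EV library. The log2 ratio of MT-ND6 to the 12 mRNAs of the plus strand averaged -6.695 ± 0.0971 in OE and -6.77 ± 0.112 in EV in the first set, within the spread. Of the mRNA counts of the second set, complex IV held 49.5 ± 1.93% in OE and 49.4 ± 1.56% in EV, and of those of the first set 54.00 ± 0.603% in OE and 55.2 ± 2.39% in EV. The share of complex IV therefore differed between OE and EV by less than the spread in each set.

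Nuclear genes that serve the same complexes did not show the same sign throughout, and none passed edgeR's test over both sets. Of the nuclear subunits of complex I, 16 of 36 tested lay below 0 (median log2 change 0.021), against 7 of 7 mitochondrial ones. For complex III it was 4 of 9, for complex IV 7 of 11 and for complex V 8 of 18, with medians of 0.0080, -0.022 and 0.0089. Examples were NDUFS6 and NDUFA13 of complex I at 0.29 (SE 0.13) and -0.75 (SE 0.35), and the cytochrome CYC1 of complex III at 0.17 (SE 0.071). Others were COX6A1 of complex IV at 0.25 (SE 0.12) and ATP5ME of complex V at 0.52 (SE 0.18). NDUFA13 lay near the cut of the filter (0.58 CPM), at 0.34 to 0.76 CPM in OE and 0.45 to 1.66 CPM in EV. Its value is therefore imprecise. Proteins of the mitochondrial ribosome, which holds both rRNAs, lay below 0 in 37 of 77 cases, and 6 of the 77 had an unadjusted p under 0.05, all higher, beside 3.18% of all genes higher and 2.53% lower. Examples were MRPS26 at 0.25 (SE 0.10) and MRPL34 at 0.27 (SE 0.11).

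Genes that keep and read the mitochondrial genome gave 0 calls over both sets by edgeR. TFAM, which packs mitochondrial DNA and starts its transcription, averaged 137 ± 11.3 CPM in OE and 143 ± 12.2 CPM in EV (SD, n = 5 each), a log2 change of -0.065 (SE 0.069). POLRMT, the mitochondrial RNA polymerase, averaged 128 ± 17.6 CPM in OE and 119 ± 17.5 CPM in EV, at 0.10 (SE 0.065). LRPPRC, which stabilizes mitochondrial mRNAs, averaged 319.6 ± 37.6 CPM in OE and 330.5 ± 38.1 CPM in EV, at -0.049 (SE 0.058). Of 17 genes of maintenance and transcription 11 lay below 0, and of 33 genes of RNA processing and stability 24 did, with medians of -0.057 and -0.046. Members with the lowest unadjusted p were MRPL12 at 0.39 (SE 0.18) and FASTKD1, an RNA-binding protein of mitochondria, at -0.17 (SE 0.077). Among regulators of mitochondrial content ESRRA, a nuclear receptor, was at 0.23 (SE 0.076), and its adjusted p by edgeR was 0.847.

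More mitochondrial genes were called between the sets than between OE and EV. With OE and EV together, edgeR called 15 of the 31 tested mitochondrial genes between the second set (n = 4) and the first (n = 6), 12 higher and 3 lower in the second set, beside 18.4% of all genes (9.27% higher and 9.17% lower). Of the 31 genes, 24 were over the cut of the filter in all 10 libraries, and of these 8 were higher and 3 lower. The other 7 tested members were tRNAs with few counts. Of these, 6 were over the cut in all libraries of the second set but not of the first, so their 4 calls are no support for a difference. What separates the sets (vector, culture, time or sequencing) is not stated, and such causes cannot be told apart.

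Of the 9 tRNAs over the cut in every library 5 were called, all higher in the second set, with a median log2 change of 0.60 over the 9, beside a median of -0.0012 over all genes. MT-TL1 had 24.2, 23.6, 29.4 and 25.9 CPM in the 4 second-set libraries (OE replicates 4 and 5, then EV), against 8.605, 13.9, 10.3, 16.8, 13.2 and 16.3 CPM in the 6 first-set libraries (OE replicates 1 to 3, then EV). All second-set values lay above all first-set values, as for 4 of the 24 mitochondrial genes over the cut in every library (MT-TL1, MT-TY, MT-TC and MT-ND1), beside 8.68% of all genes. The log2 change was 0.98 (SE 0.13), with an adjusted p = 0.000302 (edgeR).

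MT-TY had 21.4, 29.6, 27.2 and 27.2 CPM in the second set, against 10.7, 11.1, 11.6, 11.8, 3.94 and 11.6 CPM in the first, in the same order of libraries. Its sets did not overlap either, and the log2 change was 1.38 (SE 0.21), with an adjusted p = 0.000807 by edgeR. The other called tRNAs of this kind were MT-TV at 1.36 (SE 0.28), MT-TG for glycine at 0.79 (SE 0.24) and MT-TH for histidine at 0.60 (SE 0.18). The most abundant tRNAs did not pass, MT-TN at -0.28 (SE 0.14) and MT-TC at 0.30 (SE 0.10), with adjusted p-values of 0.172 and 0.0514 by edgeR. The 4 called tRNAs with few counts were MT-TD at 1.30 (SE 0.36), MT-TT at 1.60 (SE 0.40), MT-TE at 1.03 (SE 0.34) and MT-TL2 at 1.78 (SE 0.48).

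The mRNAs went both ways. The 3 with a log2 change above 0 (MT-ND1, MT-ND5 and MT-ND6) encode subunits of complex I. The other 4 of complex I lay below 0, and the median of complex I was -0.048. All 6 of complexes III, IV and V also lay below 0. Of the mRNA counts, complex I held 33.7 to 37.5% in the second set and 28.3 to 32.6% in the first, and complex IV 48.1 to 50.8% in the second and 53.4 to 57.9% in the first. Neither share overlapped between the sets, and the differences in share were not tested. MT-ATP8 had 13.1, 14.6, 16.1 and 13.9 CPM in the second set, against 27.5, 28.9, 31.1, 28.7, 24.4 and 46.3 CPM in the first. The sets did not overlap, the second being lower, as for 2 of these 24 genes (MT-ATP8 and MT-ND3), beside 7.88% of all genes. MT-ATP8 was at -1.11 (SE 0.15), with an adjusted p = 0.000421 by edgeR, while MT-ATP6, with which it shares its mRNA, was at -0.056 (SE 0.082), with an adjusted p = 0.683. MT-ND3 of complex I had 557, 495, 441 and 551 CPM in the second set, against 857, 826, 680.1, 741, 1075 and 698 CPM in the first, again without overlap, at -0.67 (SE 0.12), with an adjusted p = 0.00247 by edgeR.

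MT-ND1 had 2903, 2615, 3119 and 3051 CPM in the second set, against 2060.4, 2066, 2013, 2217, 2404 and 2309.9 CPM in the first. It was higher in all second-set libraries, at 0.42 (SE 0.059), with an adjusted p = 0.000434 by edgeR. MT-ND6 was higher by 0.24 (SE 0.074) and MT-CO1 lower at -0.34 (SE 0.079), both with overlap of the sets (adjusted p = 0.03796 and 0.01004 by edgeR). The other 8 mRNAs did not pass, among them MT-CO2 at -0.27 (SE 0.10), MT-CO3 at -0.23 (SE 0.090), MT-ND4L at -0.35 (SE 0.19) and MT-ND5 at 0.14 (SE 0.096).

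The rRNAs diverged. MT-RNR2 was higher in the second set at 0.36 (SE 0.087), with an adjusted p = 0.01297 by edgeR, and MT-RNR1 was at -0.42 (SE 0.15), short of the threshold (adjusted p = 0.0658). Per length, MT-RNR1 made up 16.6, 16.3, 15.2 and 16.1% of MT-RNR2 in the 4 second-set libraries, against 23.00, 20.9, 27.05, 27.6, 34.98 and 33.4% in the 6 first-set libraries. All second-set values lay below all first-set values. The ratio of MT-ATP8 to MT-ATP6 behaved likewise, at 1.26 to 1.75% in the second set and 2.31 to 4.74% in the first, and that of MT-ND4L to MT-ND4 overlapped.

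**Figure D4:**
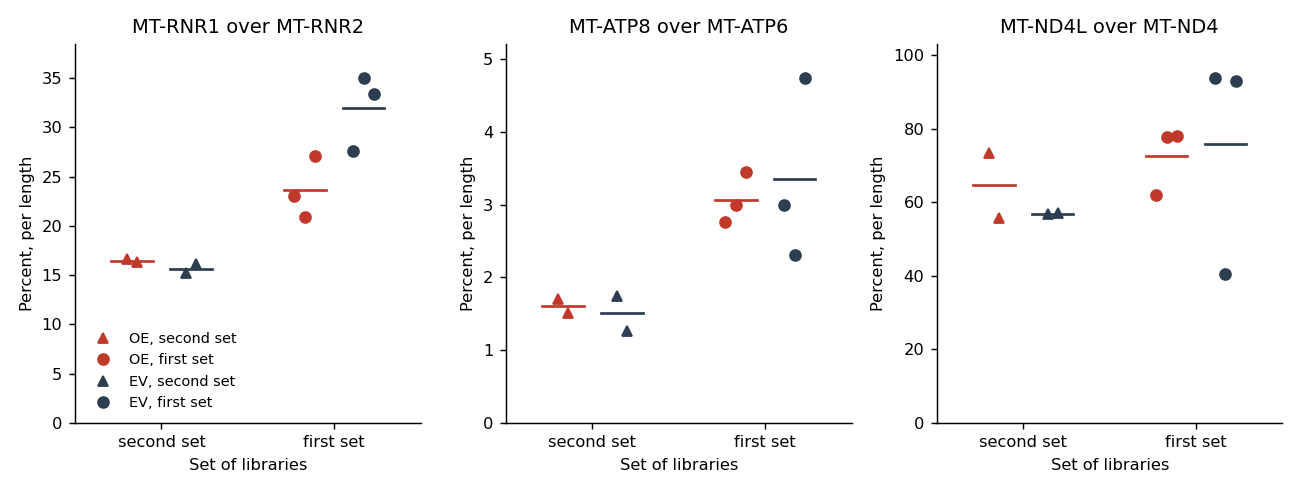
Level per length of MT-RNR1 relative to MT-RNR2, of MT-ATP8 relative to MT-ATP6 and of MT-ND4L relative to MT-ND4 (percent) in every library, with the second set left of the first, OE in red, EV in dark blue and bars for means. The triangles of the second set lie below all circles of the first set in the left and middle panels, and the low EV circle in the right panel is EV replicate 2.

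Leaving out 1 library moved the count of 15 to 8 without OE replicate 5, without EV replicate 4 or without EV replicate 5, and to at most 19, without EV replicate 2. MT-TL1, MT-TY, MT-TV and MT-ND1 (higher) and MT-ATP8, MT-ND3 and MT-CO1 (lower) were called under all 17 alternatives, with ranges of 0.90 to 1.06 for MT-TL1 and -1.18 to -0.96 for MT-ATP8. MT-RNR2 was called under 15 of 17, its adjusted p running from 3.34e-06 to 0.0656. Less stable were MT-TH, called under 10 of 17, and MT-TG and MT-ND6, each called under 9 of 17. By edgeR, 8 of 11 RNAs taken to lack a poly(A) tail were called lower in the second set, beside 9.17% of all genes. The median log2 change of the 11 was -1.504, and their part in the set differences was not tested. Of the nuclear subunits of complex I, 8 of 36 were called lower, beside 9.17% of all genes, and 1 higher, beside 9.27%.

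**Figure D5:**
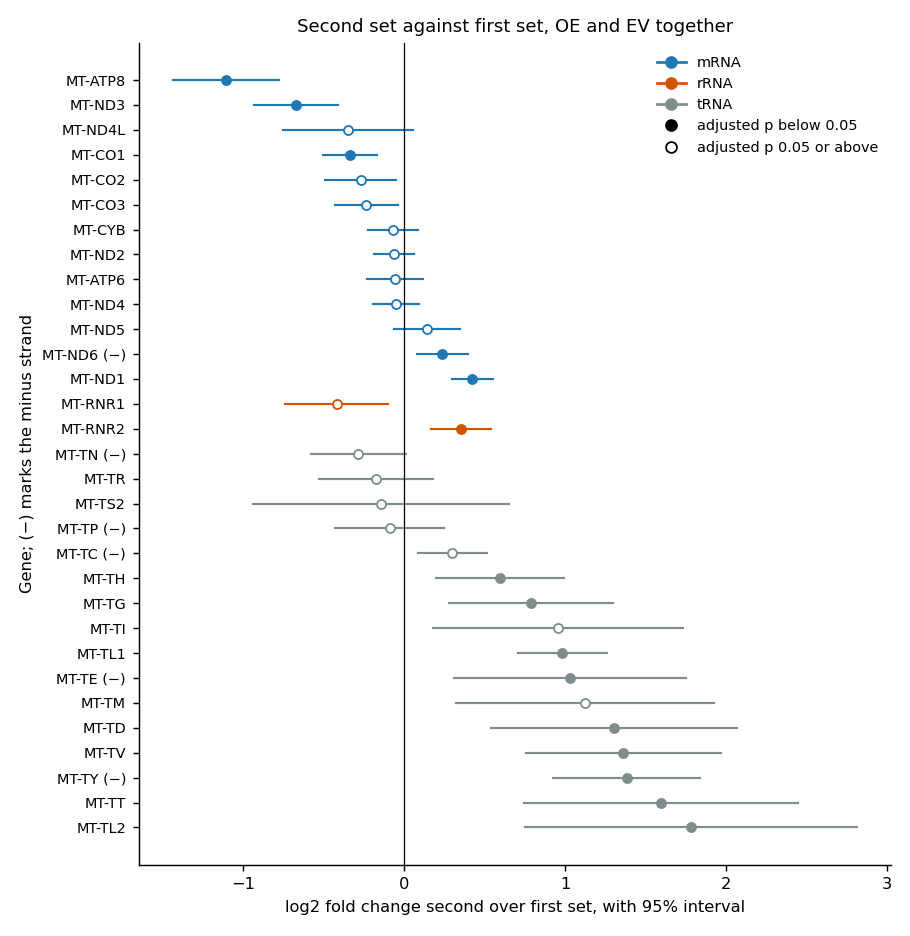
Log2 fold change of the second over the first set with its 95% interval for the 31 tested mitochondrial genes, OE and EV together, grouped as mRNAs (blue), rRNAs (orange) and tRNAs (grey). Filled points had an adjusted p under 0.05, and among the tRNAs these include MT-TD, MT-TT, MT-TE and MT-TL2, which were over the cut of the filter in all second-set but not all first-set libraries.

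The authors' deposited table holds its own comparison of OE with EV for the second set, 1 library against 1. For replicate 4 it gives a log2 fold change below 0 for 24 of 35 mitochondrial genes, and for replicate 5 for 31 of 36. These counts include tRNAs left untested above for few counts, and no share over all genes is given beside them. A comparison of 1 library with 1 holds no spread between replicates, so the signs are a description only. For MT-RNR1 the authors' deposited table gives 0.01 for replicate 4 and -0.07 for replicate 5, and for MT-ND2 -0.14 and -0.23.

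Copies of mitochondrial genes in nuclear chromosomes can take reads from the members or lend them some. The tables list 407 such copies, of which 70 had a count, and together they held 58998 counts, or 0.762% of the counts of the 37 genes. MTND2P28 on chromosome 1, whose sequence is 98.4% identical to MT-ND2, had 7.03% of the counts of MT-ND2, and MTATP6P1, 98.5% identical to MT-ATP6, 4.77%. Their log2 changes over both sets were -0.045 (SE 0.11) and 0.16 (SE 0.14). MTCO1P12, 98.6% identical to MT-CO1 with 0.233% of its counts, was at 0.35 (SE 0.11), opposite in sign to MT-CO1. MTND4P12 and MTND1P23 had under 20 counts in each library. How a read that fits both a member and a copy was counted is not stated. Values of these members are therefore uncertain, and the shares above set no bound on that.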

How the data were processed

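Total RNA of TPC-1 cells (TRIzol, DNase I) gave 10 NEBNext libraries (5 OE, 5 EV), which were read from both ends on a NovaSeq instrument, per the labels' protocols. The authors deposited raw counts per gene in 2 tables of 58735 genes each. The submitters' processing notes name featureCounts 1.5.0-p3, HISAT2 2.0.5, DESeq2 1.20.0, fastp, CASAVA 1.8 and the build hg38, with no roles. One table also holds log2 fold changes and p-values that the authors deposited for single pairs of libraries, and 14 deposited per-library columns were not used.

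Counts were tested with edgeR 4.0.16 (R 4.3.3) by quasi-likelihood with TMM scaling, its filter on low counts by group and a term for the set. P-values were adjusted over all genes tested by Benjamini-Hochberg, with a threshold of 0.05. The 2 sets, their difference and the second against the first set were fitted likewise. CPM are TMM-scaled, and intervals are 95% intervals. Alternatives used DESeq2 1.42.0, limma 3.58.1 (voom), other scalings, no filter, each library left out, the replicate number as a block and, chosen after seeing the data, an offset for GC content. The fits were tested on simulated data. Sequences and gene models came from GENCODE 29, in which all 37 members matched by position and strand, read with Biopython 1.88 and Python 3.11.15.

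Replicates differed by more than sampling noise, so none was counted as a duplicate. The libraries held 15761474 to 18066559 counts. All mitochondrial genes that passed the filter could be named. Of each other list the 3 genes with the lowest unadjusted p over both sets could be named, together with TFAM, POLRMT and LRPPRC, and of the nuclear copies the 5 with the highest mean count. The members and lists were chosen with earlier results of these data known.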

Additional observations from a re-analysis of the deposited data

Results flagged for a closer look

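Single libraries stood far from the rest of their group in 3 of 72 groups of values looked at, and chance alone gives about 1 in 20. MT-TC had 70.2 CPM in OE replicate 2, below the 83.1 to 88.1 CPM of the other OE libraries. MT-TG had 6.87 CPM in OE replicate 5, above the 2.17 to 2.91 CPM of the other OE libraries. The log2 ratio of rRNA to mRNA counts was -2.09 in EV replicate 4, above the -2.69 to -2.61 of the other EV libraries.

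MT-TL2, a leucine tRNA with few counts, was lower in each OE library than in each EV library of the second set, with 10 and 24 counts in OE and 32 and 25 in EV. In the first set it had 16, 8 and 6 counts in OE replicates 1 to 3, against 5, 1 and 5 in EV replicates 1 to 3. The nearest OE and EV libraries were 1 count apart in each set, which is within counting error. The difference of the log2 changes, second minus first set, was -2.11 (SE 0.86), and since MT-TL2 was picked for this pattern no test of it is given.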

How the results depend on the processing

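No filter on low counts gave 23 genes and 1 mitochondrial gene (MT-RNR1) called over both sets, 90 and 1 in the first set, 12 genes in the second, and 28 and 1 for the difference between the sets. DESeq2 gave 6 genes over both sets, 76 genes and 1 mitochondrial gene in the first set, 1 gene in the second and 9 for the difference. With 1 library left out, calls ran from 0 to 1578 genes and 0 to 6 mitochondrial genes in the first set, 0 to 1 genes in the second, 0 to 7 for the difference, and 1312 to 3850 genes and 8 to 19 mitochondrial genes between the sets. Over both sets, the log2 change then ran from -0.21 to 0.074 for MT-TN, -0.050 to 0.077 for MT-TC, -0.26 to 0.024 for MT-ATP8, -0.087 to 0.12 for MT-ND3 and -0.25 to 0.036 for MT-ND4L. It ran from -0.44 to 0.088 for MT-ND4L and -0.26 to 0.0059 for MT-ND5 in the first set, and from -0.22 to 0.13 for MT-RNR1 and -0.29 to 0.072 for MT-RNR2 in the second. Between the sets it ran from -0.13 to 0.018 for MT-ATP6 and -0.27 to 0.012 for MT-TP. With the GC offset, the log2 change of OE over EV across both sets was 0.040 for MT-TN and 0.036 for MT-ND3. The causes were not tested. Same-numbered libraries deviated together at r = -0.11, 0.0035 and 0.16 for numbers 1 to 3 over all genes. Over mitochondrial genes these were 0.44, 0.34 and -0.038. Numbers 4 and 5 make up their whole set, so they share 1 value by construction, 0.31 over all genes and 0.16 over mitochondrial genes. Over all genes numbers 1 and 2 deviated more with another number. The numbers were therefore not taken to pair libraries. The replicate block gave 1 gene in the first set and 3 for the difference. In the second set it gave 71 of 14419 genes and 7 of 32 mitochondrial genes. The 7 were MT-ND1, MT-ND2, MT-ND4, MT-CYB, MT-CO1, MT-CO2 and MT-ATP6, with adjusted p = 0.0328 for MT-ND1 and 0.00402 for MT-ND2 by edgeR. That fit spends most of its few libraries on the block, so its spread is poorly estimated. In 14 of the tRNA genes a library had under 20 counts, which limits their precision.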
